A study of Mus musculus with 2 samples.

Results

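The genes described here act in iron uptake, storage and sensing, and were measured in the liver of mouse embryos. They are Trf, Tfrc, Steap3, Slc11a2, Ftl1, Fth1, Pcbp1, Slc40a1, Aco1 and Ireb2. They were chosen by name for their known roles and not by a cutoff on their values, though with earlier results of these data known. All 10 were found among the 43346 Ensembl genes of the deposited tables. The samples were 2 total RNA libraries of E16.5 liver from B6NCrl mice (replicates 1 and 2), each made from livers pooled over embryos of both sexes. The labels describe the animals as healthy and name no genetic change or treatment, give 41 embryos for replicate 2 and no number for replicate 1, and carry 1 donor identifier for both libraries. The labels do not say whether the pools came from separate litters, so the SD over these libraries may be partly technical. There is 1 group and no second condition, so levels are described and nothing is tested.

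Most cells take up iron bound to transferrin in the plasma. The transferrin receptor carries it into endosomes, where iron is reduced and passed to the cytosol, then used, stored in ferritin shells or exported. When cytosolic iron is low, the iron regulatory proteins bind iron-responsive elements (IREs), short stem-loops in the untranslated regions (UTRs) of certain mRNAs. Binding in a 5′ UTR blocks translation, and binding in the 3′ UTR of the transferrin receptor mRNA protects it from decay. The fetal liver holds hepatocytes, which secrete transferrin, beside large numbers of maturing red blood cells, which take up iron to make haem.

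Stem-loops were searched in the transcript sequences of GENCODE release M21 (assembly GRCm38, the build called mm10), on the transcript strand alone. The motif was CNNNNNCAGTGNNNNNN, in which the 5 bases after the first C had to pair with the last 5 bases, G-T pairs being allowed. It was found in 4 of the 10 genes: Fth1, Ftl1 and Slc40a1 in the 5′ UTR and Tfrc in the 3′ UTR. Among all annotated transcripts, 890 of 141767 (0.628%) held it, and among all genes 448 of 55450 (0.808%). A match of this kind is a description of the letters and not a measured binding site. The sites are shown because the transcript shares given for each gene turn on them. Each is 30 bases long, 5′ to 3′, with the unpaired C and the 6-base loop in capitals.
Fth1: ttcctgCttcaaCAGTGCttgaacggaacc
Ftl1: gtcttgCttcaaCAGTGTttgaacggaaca
Slc40a1: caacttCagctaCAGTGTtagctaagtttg
Tfrc, first site: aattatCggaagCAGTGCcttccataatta
Tfrc, next site: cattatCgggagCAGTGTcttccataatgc
Tfrc, next site: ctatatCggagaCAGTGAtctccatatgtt
Tfrc, last site: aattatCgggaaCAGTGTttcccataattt
Slc11a2, 4 of 5 positions paired: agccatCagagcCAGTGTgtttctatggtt

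The Fth1 site lies at chr19:9982732-9982761 on the plus strand, the Ftl1 site at chr7:45459778-45459807 on the minus strand and the Slc40a1 site at chr1:45925464-45925493 on the minus strand, each in the first exon of the gene's leading transcript. The ferritin sites differ from each other at 4 of 30 bases, and at 1 of the 17 bases of the motif. The Tfrc sites lie on the plus strand of chromosome 16 in exon 19 of 19 of Tfrc-201, at 32631219 to 32631248, 32631598 to 32631627, 32631663 to 32631692 and 32631710 to 32631739. Those 4 sites differ among themselves at 5 to 12 of 30 bases. The site at 32631598 has 4 Watson-Crick pairs and 1 G-T pair, and the other 3 Tfrc sites have 5 Watson-Crick pairs. With Watson-Crick pairs alone, the same 4 genes held a site, and 198 of all annotated transcripts (0.140%) did. The Slc11a2 site, at chr15:100395152-100395181 on the minus strand, was found only when 1 of the 5 positions was allowed to be unpaired. That looser rule matched 5.16% of all annotated transcripts. Alas2 and Epas1 are also known to carry such elements, and the main rule matched Alas2 and not Epas1. A gene with no match may thus still carry one, and a gene with matches may carry more than were found. No match was found under any rule in the transcripts of Trf, Steap3, Pcbp1, Aco1 or Ireb2. The Ireb2 transcript was searched in its M21 form of 5770 nt, while the quantified form has 5808 nt.

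Levels are given in TPM, a unit of transcript abundance that is divided by transcript length and sums to a fixed total per library, so genes may be compared. The libraries held 44477766 expected counts (replicate 1) and 48820712 (replicate 2), where an expected count is an estimated read count after shared reads are divided among transcripts. The hepatocyte markers Alb, Afp, Ttr, Apoa1 and Serpina1a summed to 28500 and 30404 TPM, and the 5 erythroid markers, which include the adult globin Hbb-bs, to 78183 and 75857. Macrophage markers summed to 274 and 294 TPM and neutrophil markers to 5717 and 5985, and all 5 markers of each of these 4 lists reached 1 TPM in both libraries. In bulk tissue, fewer cells of a type and less RNA per cell cannot be told apart. Of 9 markers of neighbouring tissues, the muscle gene Acta1 led, at 76.00 TPM in replicate 1 and 181.85 in replicate 2. That list summed to 98.2 and 220 TPM, with Nkx2-1 and Umod at 0 in both. Its part in the differences between libraries given here was not tested.

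Each of the 10 iron genes reached 1 TPM in both libraries, a level that 27.9% of all genes reached. Of them, 5 of 10 stood at 100 TPM or more in both, against 2.12% of all genes. From the highest, the order was Trf, Ftl1, Fth1, Tfrc, Slc40a1, Pcbp1, Aco1, Steap3, Slc11a2 and Ireb2. It was the same in both libraries except for Steap3 and Slc11a2, whose ranges overlapped. Together the 10 genes took 2.61% of all TPM in replicate 1 and 2.91% in replicate 2. Trf held 63.4% and 68.2% of that, the ferritin chains 34.1% and 29.6%, and the other 7 genes 2.48% and 2.19%.

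**Figure D1:**
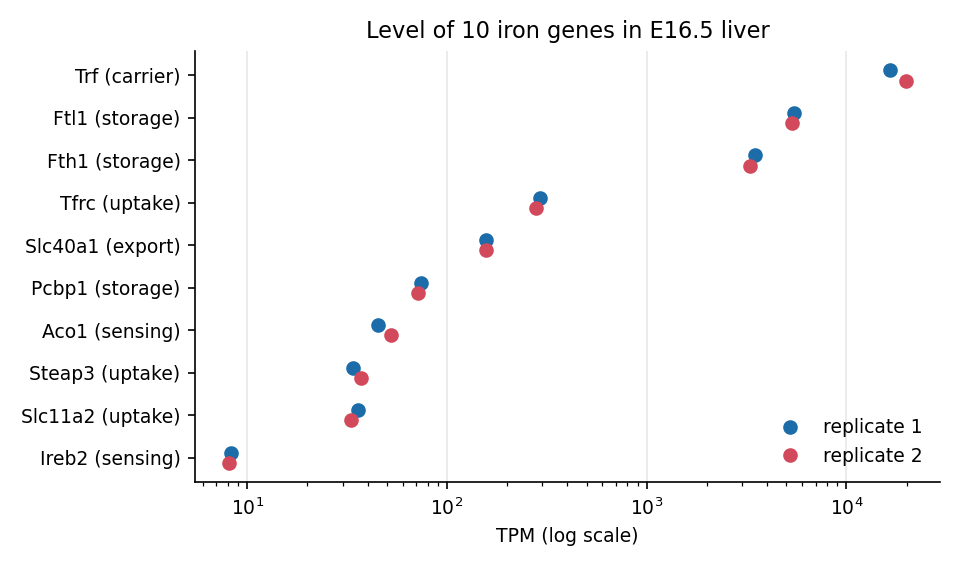
TPM on a log scale of the 10 iron genes in replicate 1 (blue) and replicate 2 (red) of E16.5 liver, with each gene's role in brackets. Levels run from about 8.21 TPM for Ireb2 to 18208 TPM for Trf (means), and only the points of Steap3 and Slc11a2 change order between the libraries.

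Trf (ENSMUSG00000032554.11, chr9:103204001-103230444, minus strand) encodes transferrin, the plasma carrier of ferric iron. It stood at 16577.04 TPM in replicate 1 and 19839.25 in replicate 2 (18208 ± 2307, SD, n = 2). It ranked 5th of all genes in both libraries, above the hepatocyte markers Afp and Alb. Trf alone took 2.75% and 3.20% of all expected counts. Its TPM depends on how short transcript models are weighed. The full-length coding transcript Trf-201 (2571 nt, 17 exons) held 64.0% ± 0.632 of the gene's TPM and 90.7% ± 0.0922 of its counts. Trf-209, a retained-intron model of 433 nt, held 26.9% and 27.6% of TPM on 5.22% ± 0.144 of counts. Of its 433 bases, 423 also lie in exons of Trf-201. Trf-207 (745 nt, 7 exons, annotated as coding) held 7.51% ± 0.167 of TPM, and all 745 of its bases lie in exons of Trf-201. With Trf-201 alone the level was 11638 TPM on average, which is still above that of every other iron gene described here. In each library, Trf-201 alone (10676.04 and 12599.55 TPM) was below Afp (13666.97 and 13628.83 TPM), so their order depends on how the short models are treated. Trf-201 alone leaves out the counts given to the short models, most of whose bases it shares. The level with those counts moved to Trf-201 was not computed. Gm20425, a gene model that lies across Trf on the same strand, stood at 5.14 and 5.89 TPM.

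Tfrc (ENSMUSG00000022797.11, chr16:32608920-32632794, plus strand) encodes the transferrin receptor TFR1. It stood at 293.49 and 277.84 TPM (286 ± 11.1, SD, n = 2). Its relative Tfr2, a receptor known as a hepatocyte sensor of plasma iron, stood at 44.39 and 44.76 TPM. Tfrc was thus 6.61-fold and 6.21-fold higher than Tfr2 per length. By whole-gene TPM, which for Trf includes its short models, the carrier's mRNA exceeded the receptor's 56.5-fold in replicate 1 and 71.4-fold in replicate 2. That ratio was not computed with the leading Trf transcript alone or by expected counts.

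Of the Tfrc transcripts, Tfrc-201 (4890 nt, 19 exons) held 61.6% and 58.9% of TPM. Tfrc-204, a retained-intron model of 3527 nt, held 25.7% and 26.1%, and 3201 of its bases also lie in exons of Tfrc-201. Both carry all 4 stem-loops printed above. Together they held 87.3% and 85.0% of the gene's TPM, and 96.8% and 95.6% of its counts. Tfrc-202 (1860 nt), a coding model that ends upstream and lacks the sites, held 5.51% in replicate 1 and 8.08% in replicate 2. Its deposited TPM intervals in the libraries, 12.9 to 18.9 and 18.9 to 25.9, met at their ends. Tfrc-205, a short retained-intron model without the sites, held 5.52% and 5.41%.

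Steap3 (ENSMUSG00000026389.12, chr1:120190757-120272705, minus strand) encodes the endosomal reductase that turns ferric into ferrous iron in red cell precursors. It stood at 33.78 and 36.98 TPM (35.4 ± 2.26, SD, n = 2). The related metalloreductase genes were lower: Steap4 stood at 7.87 and 8.23 TPM, Steap2 at 4.58 and 4.05, and Steap1 at 2.98 and 2.66. Steap3 was 2.33-fold ± 0.202 the sum of those 3 genes. Its 5 annotated transcripts are all coding and begin at several first exons. Those that begin at the first exon of Steap3-202 held 80.2% and 79.7% of TPM, and the next start lies 5139 nt upstream. Steap3-201, from that start, held 9.30% in replicate 1 and 5.65% in replicate 2. Steap3-203 went from 5.62% to 7.38% and Steap3-204 from 4.91% to 7.25%. Between the libraries the deposited TPM intervals of Steap3-203 nearly met, at 1.57 to 2.28 in replicate 1 and 2.29 to 3.13 in replicate 2. Those of Steap3-201 and Steap3-204 overlapped. How many of all transcripts have intervals apart was not computed. These 3 transcripts rest on 193.39 to 627.29 expected counts each.

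Slc11a2 (ENSMUSG00000023030.12, chr15:100387898-100425072, minus strand) encodes DMT1, which moves ferrous iron out of the endosome. It stood at 35.82 and 32.99 TPM (34.4 ± 2.00, SD, n = 2). The ratio of Steap3 to Slc11a2 was 0.943 in replicate 1 and 1.12 in replicate 2, so their order was not resolved. DMT1 mRNA is known in forms that end with or without an IRE. Slc11a2-205 (4415 nt), whose last exon holds the imperfect stem-loop printed above, held 18.4% and 18.0% of the gene's TPM. Slc11a2-201 (3025 nt), which ends at another exon and lacks the site, held 63.9% and 65.5%. The form without the site was 3.55-fold ± 0.127 the form with it per length, and 2.41-fold ± 0.0879 by counts. A short model annotated for nonsense-mediated decay, Slc11a2-204 (393 nt), held 14.8% and 10.1% of TPM on 65.45 and 44.63 counts, and its intervals overlapped.

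**Figure D2:**
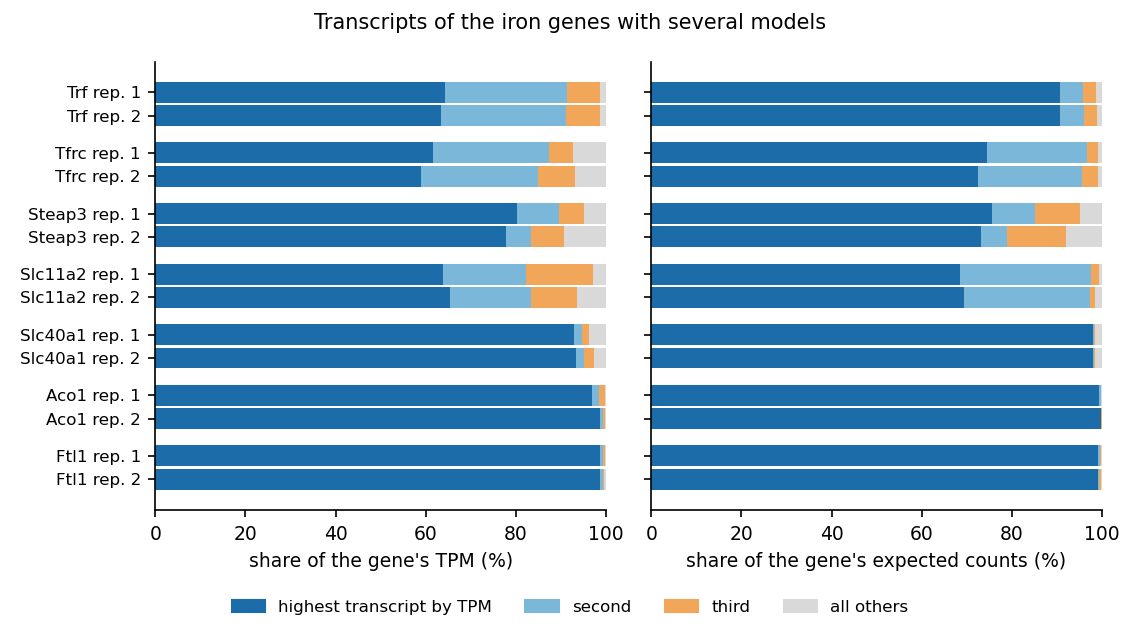
Share of each gene's TPM (left) and expected counts (right) on its highest, next and following transcript by mean TPM, with all others in grey, for the 7 iron genes with several transcript models, 1 bar per library. Trf-201 fills 64.0% of TPM and 90.7% of counts, and Slc11a2 and Tfrc are also divided among several transcripts, while Slc40a1, Aco1 and Ftl1 rest mostly on 1.

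Ftl1 (ENSMUSG00000050708.10, chr7:45457944-45459884, minus strand) encodes the ferritin light chain, which favours the growth of the iron core. It stood at 5444.32 and 5355.04 TPM (5400 ± 63.1, SD, n = 2) and ranked 14th and 17th of all genes. Fth1 (ENSMUSG00000024661.6, chr19:9980598-9985098, plus strand) encodes the heavy chain, the ferroxidase of the shell. It stood at 3465.39 and 3270.07 TPM (3368 ± 138, SD, n = 2) and ranked 21st and 22nd. The light chain was 1.57-fold the heavy chain in replicate 1 and 1.64-fold in replicate 2 (1.60 ± 0.0470). Fth1 was 11.8-fold the level of Tfrc, the next gene in the order, in both libraries.

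Reads of Ftl1 may be shared with other rows of the tables. Expected counts of Trf, Ftl1 and Fth1 were not whole numbers, whereas those of the other 7 genes were. Gm22133, a miRNA gene of 109 nt inside Ftl1 on the same strand, was listed at 5312.25 and 5707.43 TPM on only 2236.36 and 2596.02 expected counts. TPM divides by an effective length, typically 99 nt below the full length here, which leaves little of the 109 nt. The Gm22133 row and those of ferritin copies and pseudogenes were then added to the chain they belong to. The ratio of light to heavy chain became 3.26 by TPM, against 1.85 by expected counts and 1.81 by expected counts without them. Ftl1-ps1, a copy on chromosome 13 whose stem-loop has the same 30 bases as that of Ftl1, stood at 67.72 and 73.62 TPM, also on counts that were not whole. Ftl2-ps, Ftl1-ps2 and Fth-ps2 each stood below 1 TPM. The mitochondrial ferritin gene Ftmt held 0 counts, which at 3 counts allows up to 0.0527 TPM in replicate 1 and 0.0488 in replicate 2.

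Nearly all TPM of the ferritin chains was assigned to transcripts whose M21 form holds the stem-loop. Ftl1-201 (968 nt) held 98.8% and 98.7% of Ftl1 TPM. The other 4 Ftl1 transcripts of the tables are not in release M21, could not be searched and were counted as lacking the stem-loop. Fth1 has 1 transcript in the tables, so its share was fixed at 100%. That transcript has 866 nt, which is 63 nt shorter than in M21. The motif was read from the M21 form, in which the printed site begins at base 87. Over all transcripts that could be searched, those with the motif took 1.33% and 1.32% of TPM, and the ferritin chains made up 69.3% and 68.4% of that.

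Pcbp1 (ENSMUSG00000051695.6, chr6:86524492-86526321, minus strand) encodes an RNA-binding protein that also delivers iron to ferritin. It stood at 73.98 and 71.77 TPM (72.9 ± 1.56, SD, n = 2) on a single transcript of 1 exon. Its paralogs were lower: Pcbp2 stood at 23.19 and 21.77 TPM, Pcbp4 at 4.62 and 5.39, and Pcbp3 at 4.14 and 3.31. Pcbp1 was 3.24-fold ± 0.0754 the level of Pcbp2. The antisense gene 1600020E01Rik, which overlaps the start of Pcbp1, stood at 15.16 and 18.01 TPM, and the labels name no strand-specific step that would keep their reads apart.

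Slc40a1 (ENSMUSG00000025993.6, chr1:45908068-45926523, minus strand) encodes ferroportin, the cellular iron exporter. It stood at 157.47 and 156.66 TPM (157 ± 0.573, SD, n = 2). The uptake receptor Tfrc was 1.86-fold and 1.77-fold the exporter per length. Ferroportin mRNA is known to occur with an alternative first exon that skips the IRE, in intestine and in red cell precursors. In these libraries Slc40a1-201 (3370 nt), which holds the 5′ stem-loop, made up 92.9% and 93.3% of TPM. All 3 transcripts with the site made up 94.2% and 94.6% of TPM and 99.4% of counts. The 3 annotated spliced transcripts that start upstream of the exon with the site and lack it made up 3.98% and 3.35% of TPM. They are models of at most 451 nt, which held 0.396% and 0.342% of the gene's counts. Reads in the exons they share with longer forms cannot be assigned by start, so these shares are the quantifier's estimates. No full-length model without the site was quantified. Reads from the last exons of such a form could only be given to models with the site. These shares thus cannot tell how much of that form was present.

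**Figure D3:**
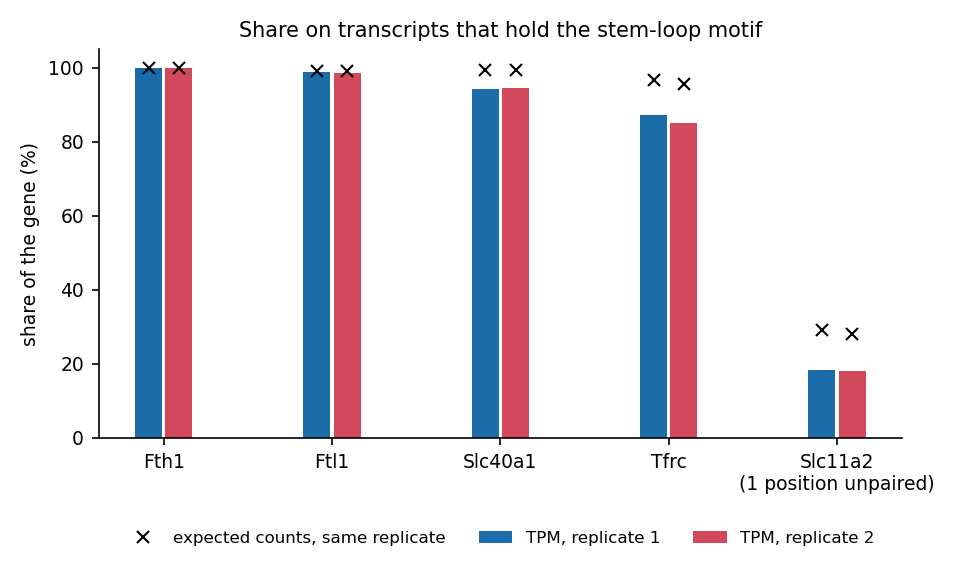
Share of each gene's TPM on transcripts that hold the stem-loop motif, as bars for replicate 1 (blue) and replicate 2 (red), with the share of expected counts as crosses. Fth1, Ftl1, Slc40a1 and Tfrc lie between 85.0% and 100% of TPM, and Slc11a2, shown under the rule with 1 unpaired position, at 18.4% and 18.0%.

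Aco1 (ENSMUSG00000028405.9, chr4:40143081-40198338, plus strand) encodes IRP1, which is either a cytosolic aconitase with an iron-sulphur cluster or an IRE-binding protein. It stood at 45.34 and 52.34 TPM (48.8 ± 4.95, SD, n = 2). Ireb2 (ENSMUSG00000032293.7, chr9:54863789-54912530, plus strand) encodes IRP2, which is degraded when iron is plentiful. It stood at 8.32 and 8.09 TPM (8.21 ± 0.163, SD, n = 2) and was the lowest of the 10 genes. Aco1 was 5.45-fold the level of Ireb2 in replicate 1 and 6.47-fold in replicate 2 (5.96 ± 0.721) per length. By expected counts, which do not correct for the longer Ireb2 transcript, the ratio was 3.83 ± 0.503. Aco1-201 (3832 nt) held 97.0% and 98.7% of Aco1 TPM, and Ireb2 has 1 transcript of 5808 nt in the tables. The mRNAs of both IRE-binding proteins were below those of the 4 genes with the full motif.

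To compare the replicates, the log2 of TPM + 1 in replicate 1 was subtracted from that in replicate 2. These ratios were centred on their median over the 12017 genes whose expected counts averaged at least 100. All 10 iron genes passed that minimum. None of the 10 differed by more than 1.5-fold (0 of 10), and 136 of the 12017 genes did (1.13%). The median absolute ratio was 0.10 for the iron genes and 0.11 for all genes tested. The highest was Trf at 0.24, and 15.5% of genes had a larger absolute ratio. Aco1 followed at 0.18 and Steap3 at 0.11, while the other 7 genes lay between -0.13 (Slc11a2) and -0.03 (Slc40a1). Scaled to the spike-in totals in place of the median gene, all genes fell by 0.33 at the median, and the ratios of Trf, Aco1 and Steap3 turned to -0.13, -0.14 and -0.23.

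By the deposited TPM intervals, whose level is not stated, 6 of the 10 genes did not overlap between libraries, against 25.4% of all genes tested. That share was not matched for expected counts, which were 2000 or more for each iron gene and averaged as low as 100 among all genes tested. Intervals were also apart for 5 of 5 erythroid, 4 of 5 hepatocyte, 3 of 5 neutrophil and 2 of 5 macrophage markers, and for 17 of 44 other iron genes. Trf, Aco1 and Steap3 lay higher in replicate 2, and Tfrc, Ftl1 and Fth1 lay lower. The intervals cover the estimate within a library and not the spread between pools. For Trf, Ftl1 and Fth1 the TPM itself lay outside its own interval. With 1 library against 1, none of these differences has a replicate check.

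**Figure D4:**
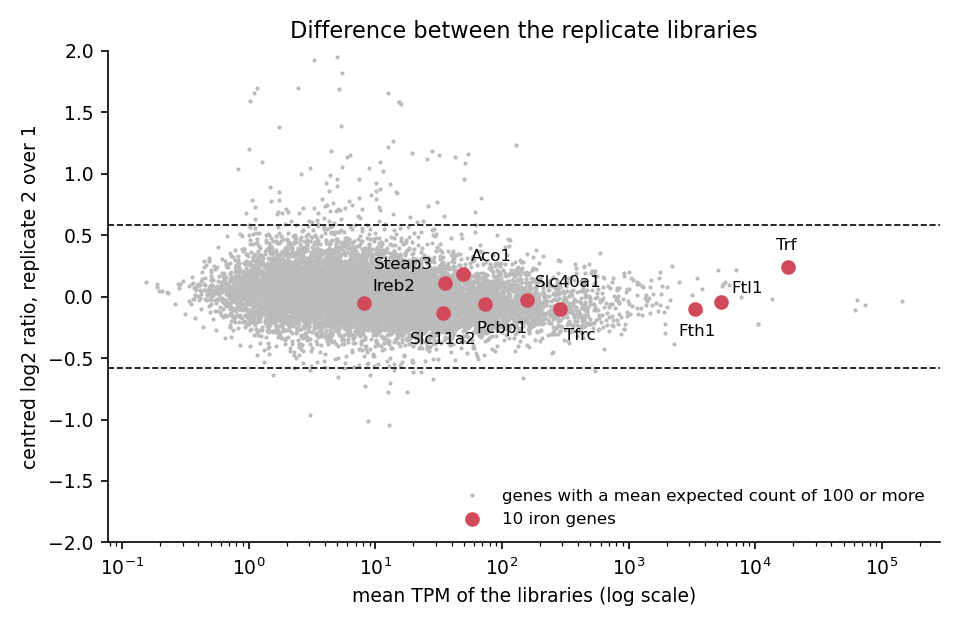
Centred log2 ratio of replicate 2 over replicate 1 against mean TPM (log scale) for genes whose expected counts averaged at least 100, with the 10 iron genes in red and 1.5-fold as dashed lines, and 13 genes beyond the plotted range left out. All 10 iron genes lie between the lines, Trf highest at 0.24.

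A further 52 genes of iron handling gave the levels around them, and 42 of these reached 1 TPM in both libraries. Their median was 17.2 TPM in replicate 1 and 18.1 in replicate 2, and 9 stood at 100 TPM or more in both. The highest were Glrx5, a mitochondrial glutaredoxin of iron-sulphur cluster transfer, at 474.65 and 442.56 TPM, the haem-binding plasma protein gene Hpx at 402.66 and 445.67, and Slc25a37, which encodes mitoferrin of erythroid cells, at 366.14 and 360.63. Each was above Tfrc and below Fth1. Ftmt, Hephl1 and Hamp2 were listed at 0, which at 3 counts allows up to 0.211 TPM in replicate 1 for Hamp2, the highest of their 3 limits. Of the 44 that passed the count minimum, 0 were higher and 1 was lower in replicate 2 by more than 1.5-fold, where 0.974% of all genes were higher and 0.158% lower. That gene, Hamp, which encodes the hormone hepcidin that removes ferroportin from the cell surface, stood at 16.13 and 9.15 TPM.

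**Figure D5:**
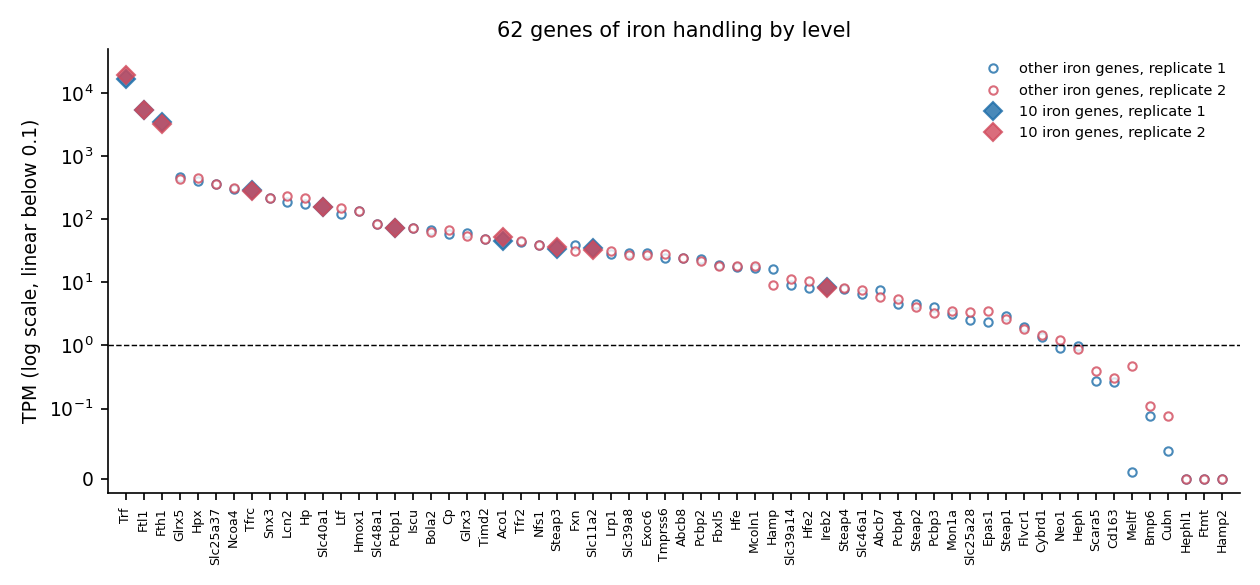
TPM of 62 genes of iron handling in order of mean level, on a scale that is logarithmic above 0.1 and linear below, with the 10 iron genes as filled diamonds and the other 52 as open circles, for replicate 1 (blue) and replicate 2 (red). Trf, Ftl1 and Fth1 lie above all others, the dashed line marks 1 TPM, and 3 genes lie at 0.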

How the data were processed

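The deposited gene and transcript tables, 1 of each per library, were made by the authors on assembly mm10 with GENCODE M4, per the text deposited with them. The file headers are those of RSEM (version not given). Expected counts, TPM, posterior mean TPM and percent of gene were used as the authors deposited them. The deposited TPM interval bounds were treated as a signal of unstated level. Per the labels, RNA above 200 nt and 10 ng per library entered a SMARTer ultra-low input protocol with spike-ins, which took 2.50% and 3.19% of expected counts. How evenly that protocol captured transcript ends was not tested.

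Symbols, coordinates and sequences came from GENCODE M21, matched by ID without version. Of the 48 transcripts of the 10 genes, 44 were found and 42 had equal length, with those of Fth1 and Ireb2 differing. Genes named were all members, their paralogs, and rows that overlap or copy them other than Gm5475 and the Fthl17 rows. Transcripts with 5% of TPM or more and the 3 highest and the lowest of 52 other iron genes were also named. Gm5475, which overlaps Slc11a2 on the opposite strand, stood at 0.02 and 0.03 TPM. The Fthl17 genes and pseudogenes were listed at 0 in both libraries. Hamp, the check genes of the motif, the medians over genes used to compare settings and the groups of Steap3 and Slc40a1 transcripts by start were chosen after their values were seen. A result that needs a withheld item is not reported here. Members, lists and rules were chosen with earlier results of these data known.

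Ratios used a pseudocount of 1. On simulated data they recovered 92 of 100 genes changed 2-fold and passed 38 of 11808 unchanged genes at 1.5-fold. The noise of that simulation was set and not estimated from these libraries. The motif search found 100 of 100 planted sites. Those sites were built to the searched pattern, so this checks the search code and not how well the pattern finds real elements. Limits for 0 counts cover counting error only. Alternatives used edgeR 4.0.16 (TMM) and DESeq2 1.42.0 (size factors) on rounded counts in R 4.3.3. Other steps used python 3.11.15, pandas 2.3.3 and matplotlib 3.10.9.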

Additional observations from a re-analysis of the deposited data

How the results depend on the processing

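No paired analysis was possible because the series has 1 group. Each replicate alone gave a median over the 10 genes of 114 to 116 TPM, Ftl1 to Fth1 ratios of 1.57 to 1.64, Aco1 to Ireb2 ratios of 5.45 to 6.47, Tfrc to Slc40a1 ratios of 1.77 to 1.86, a median leading transcript share of 95.0 to 96.0%, a median motif share over the 4 genes of 96.5 to 96.6% and 42 to 43 other iron genes at 1 TPM. The median level of 115 TPM became 322 in TMM-scaled CPM and 196 over nuclear genes other than globins, both of which change the scale. In TMM-scaled CPM, which is not divided by length, Aco1 (173) stood above Pcbp1 (122), the reverse of their order by TPM, and no other neighbours in the order of mean levels changed places. By expected counts the Ftl1 to Fth1 ratio moved from 1.60 to 1.81, Aco1 to Ireb2 from 5.96 to 3.83 and Tfrc to Slc40a1 from 1.82 to 2.30. With related rows added, the ferritin ratio was 3.26 by TPM, which rests mostly on the short Gm22133 row, and 1.85 by expected counts. The median leading share of 95.5% was 94.7% by posterior mean and 98.6% by counts. Fth1, Pcbp1 and Ireb2 have 1 quantified transcript each, so their leading shares were fixed at 100% in that median. Over the other genes, the mean leading shares ran from 60.2% (Tfrc) to 98.8% (Ftl1). The median motif share of 96.6% was 99.3% by counts, 96.2% by posterior mean TPM and 94.4% over transcripts of equal length in both annotations, where Fth1 gives no value. Within the 96.6%, the Fth1 value of 100% rests on its only quantified transcript, and no full-length Slc40a1 model without the site was quantified. The number of iron genes called between replicates was 0 under every fold, filter, pseudocount and scaling tried. Those settings called from 0.416% (2-fold) to 5.64% (spike-in totals) of all genes tested, so few or none of 10 genes would be called at those shares. By intervals that do not overlap, 6 of the 10 were called, against 25.4% of all genes tested. At 10 TPM, 27 of the other iron genes were counted in place of 42. Against Afp, the order of Trf reversed with its leading transcript alone, which leaves out the counts of its other transcripts. The signs of single genes under spike-in totals are given with the comparison of replicates. The interval rule, the leading Trf transcript alone and related rows as counts were added after seeing the data.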
